A study of Mus musculus with 18 samples.

Results

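The genes described here are 10 transcripts, most of them of muscle protein breakdown and its control. They are the ubiquitin ligase genes *Fbxo32*, *Trim63*, *Fbxo30* and *Fbxo21*, the transcription factor genes *Foxo1*, *Foxo3* and *Klf15*, and the growth inhibitor *Mstn*. With them are the mitochondrial protein gene *Mss51* and the mitophagy receptor gene *Bnip3*. All 10 were taken by gene symbol, and each matched 1 of the 21899 genes listed. RNA was sequenced from liver, eWAT (epididymal white adipose tissue) and QU muscle of male wild-type C57BL/6 mice, 18 weeks old, with 3 libraries per tissue and diet and 18 in all. CON mice had chow and tap water, and HSD mice had a high-salt diet with 8% NaCl and 0.9% saline as drinking water for 12 weeks. The libraries came from 8 mice, of which 4 gave all 3 tissues, so CON and HSD libraries are always from different animals.

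In skeletal muscle, ubiquitin ligases tag proteins of the contractile apparatus for the proteasome. FoxO transcription factors drive several of these ligase genes when signalling through insulin, IGF1 and Akt is low, and glucocorticoids act on some of the same genes through their receptor and through KLF15. Myostatin, a secreted member of the TGF-beta family, restrains muscle growth through activin type II receptors and SMAD proteins. *Fbxo32* (atrogin-1) and *Trim63* (MuRF1) are the ligase transcripts most used as markers of muscle wasting.

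Expression is given in FPKM, which sets fragments against both transcript length and library size, a scale on which levels can be compared between genes. Between 7628070 and 16637486 fragments per library lay on the listed genes, and between 11185316 and 13311130 in muscle. Diets were compared in each tissue by limma on log2(FPKM + 0.5), on which the change of a gene at low FPKM is understated. A gene was called at a Benjamini-Hochberg adjusted p under 0.05 over all genes tested and a fold of at least 2. All p-values are 2-sided, and an exact permutation test of 3 libraries against 3 cannot go below 0.1.

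Before the results, 2 libraries have to be set apart. The CON liver library CON16L held skeletal muscle transcripts: 12 of 12 fibre markers were above 1 FPKM, with a sum of 4775 FPKM against 2.94 to 7.25 in the other 5 liver libraries. Each marker stood at 1.57% to 29.15% of its CON muscle mean (median 5.52%), and *Trim63*, *Fbxo32* and *Mstn* stood at 8.39%, 8.33% and 5.14% of theirs. The HSD eWAT library HS3W held transcripts of epididymal epithelium, 18010 FPKM over 8 markers against 1.27 to 15.1 in the other eWAT libraries. Its adipocyte markers summed to 7153 FPKM, against 16820 to 23290 in the others. Blood cell markers summed to 5626 FPKM in CON16L, against 237 to 842 in the other liver libraries. In the CON eWAT library CON16W they summed to 5667 FPKM, against 243 to 744 in the other eWAT libraries. All 6 muscle libraries expressed every one of the 12 fibre markers, at 63740 to 81560 FPKM in sum. In bulk tissue, fewer cells of a type and less RNA per cell cannot be told apart.

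Promoter sequences were at hand for 9 of the 10 genes (RefSeq, GRCm38.p6, windows of 250 bases before to 50 after the start). The promoter of *Fbxo32* was not among them and was not searched. They were searched on both strands for GTAAACA (the FoxO binding element), CAAAACA (the insulin response element), ACANNNTGT (a pair of glucocorticoid receptor half-sites), CCAAT and TATAAA. *Trim63* was the only 1 of the 9 with a match to GTAAACA, which 3.65% of all 32851 windows hold, and the only 1 with ACANNNTGT, which 6.85% hold. The half-site pair lay at bases -206 to -198 and the FoxO element, in reverse, at -194 to -188, so that they did not overlap. CAAAACA (6.28% of all windows) was in none of the 9. CCAAT (37.4%) was in *Fbxo30*, *Foxo1*, *Klf15*, *Mstn* and *Bnip3*, and TATAAA (13.6%) in *Trim63* and *Mstn*. A match is a description of the letters and not a site of binding. Shown are the 250 bases before the start of *Trim63*, which holds both elements, of *Mss51*, which had the smallest p of the 10 genes in muscle and no match, and of *Mstn*, whose level moved least, with matches in capitals.
*Trim63*, chr4:134314870-134315119, plus strand: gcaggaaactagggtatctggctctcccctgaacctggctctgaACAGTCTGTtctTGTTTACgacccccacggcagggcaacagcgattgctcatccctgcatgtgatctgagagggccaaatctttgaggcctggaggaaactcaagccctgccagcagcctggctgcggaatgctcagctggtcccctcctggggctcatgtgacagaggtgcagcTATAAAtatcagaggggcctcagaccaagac
*Mss51*, chr14:20496902-20497151, minus strand: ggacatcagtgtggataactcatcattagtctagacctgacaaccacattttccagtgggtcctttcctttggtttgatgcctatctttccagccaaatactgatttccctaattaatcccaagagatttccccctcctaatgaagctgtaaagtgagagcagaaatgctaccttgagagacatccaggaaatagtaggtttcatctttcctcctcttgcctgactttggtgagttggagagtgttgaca
*Mstn*, chr1:53061390-53061639, plus strand: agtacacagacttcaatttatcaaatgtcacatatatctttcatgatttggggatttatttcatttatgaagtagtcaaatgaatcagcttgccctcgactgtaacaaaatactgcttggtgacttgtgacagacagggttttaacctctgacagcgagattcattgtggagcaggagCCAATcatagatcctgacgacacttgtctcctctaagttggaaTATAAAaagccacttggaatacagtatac

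In muscle, *Fbxo32* and *Mss51* rose in HSD mice by 2.515-fold and 2.198-fold, and no gene of the 10 fell. These 2 of 10 genes were called, against 0.323% of the 10834 genes tested (35, of which 11 were higher and 24 lower in HSD), and 0.102% were called higher. With median-ratio scaling, 13 of 30 called genes were higher. *Trim63* was 1.836-fold higher and did not pass the test. For these 3 of 10 genes, every HSD library lay above every CON library, as for 6.72% of all genes tested. The difference was above 0 for 9 of 10 genes, with a median of 0.26 on the log2 scale, against −0.06 over all genes tested. The 10 genes were chosen with earlier results of these data known, so these shares and medians are no test of the set.

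*Fbxo32* (ENSMUSG00000022358, chromosome 15, from 58175879 to 58214932, minus strand, GENCODE M21 on GRCm38) encodes the F-box protein atrogin-1, the substrate receptor of an SCF ubiquitin ligase. It stood at 58.0 FPKM in CON16M, 67.85 in CON71M and 49.1 in CON72M. In the HSD mice it stood at 183 FPKM in HS2M, 152 in HS3M and 112 in HS5M. The lowest HSD library was thus well above the highest CON library. The mean was 58.3 ± 9.39 FPKM in CON and 149 ± 35.4 in HSD (SD, n = 3 each), on 3829 to 16964 fragments per library. The log2 difference was 1.33 (SE 0.19, 95% confidence interval 0.905 to 1.76, limma adjusted p = 0.0213). *Fbxo32* was not called when CON16M (adjusted p = 0.0689), CON72M (0.0894) or HS3M (0.0702) was left out, while the difference stayed between 1.17 and 1.52 whichever library was left out. It was also not called with no filter on low FPKM (0.0757) or with all 18 libraries in 1 fit (1).

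*Trim63* (ENSMUSG00000028834, chromosome 4, from 134315120 to 134329629, plus strand), the RING-type ligase MuRF1 of the sarcomere, was the most abundant of the 10 transcripts in CON muscle. Its values were 82.4 FPKM in CON16M, 79.9 in CON71M and 75.75 in CON72M. The HSD values were 166 FPKM in HS2M, 176 in HS3M and 107 in HS5M, again without overlap. The mean was 79.35 ± 3.37 FPKM in CON and 149.5 ± 37.3 in HSD (SD, n = 3 each), on 2408 to 6485 fragments per library. Its log2 difference of 0.88 (SE 0.18, interval 0.47 to 1.28, limma adjusted p = 0.0654) was short of both thresholds. The lowest HSD value of both ligases was in HS5M. Without HS5M, the difference of *Trim63* was 1.10 (adjusted p = 0.0227), and the gene was called. With the replicate number as a block, the adjusted p was 0.0199 at the same difference, which is under the fold of 2.

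The other ligases were low in muscle and did not pass the test. *Fbxo30* (MUSA1), an F-box protein, had 5.01, 5.43 and 4.59 FPKM in CON16M, CON71M and CON72M, and 6.23, 7.14 and 4.56 in HS2M, HS3M and HS5M. *Fbxo21*, another F-box protein, had 2.86, 3.35 and 2.14 FPKM in the CON libraries in the same order, and 3.01, 2.75 and 2.81 in the HSD libraries. The groups of both genes overlapped. On the log2 scale the difference was 0.22 for *Fbxo30* (interval −0.14 to 0.58, adjusted p = 0.536) and 0.05 for *Fbxo21* (interval −0.29 to 0.39, adjusted p = 0.909).

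The transcription factors that act on the ligase genes were higher in HSD on average, but none of the 3 passed the test. *Foxo1* had 2.17, 2.03 and 2.22 FPKM in CON16M, CON71M and CON72M, and 2.94, 2.97 and 2.21 in HS2M, HS3M and HS5M, with overlap through HS5M alone. *Foxo3* had 4.82, 4.35 and 3.21 FPKM in CON and 6.10, 3.70 and 3.79 in HSD, and HS2M alone was above the CON range. *Klf15*, a zinc-finger factor induced by glucocorticoids, had 18.55, 20.4 and 15.3 FPKM in CON and 25.5, 21.5 and 17.6 in HSD, with 1 HSD library within the CON range. HSD minus CON on the log2 scale was 0.27 for *Foxo1* (interval −0.03 to 0.58, adjusted p = 0.357), 0.10 for *Foxo3* (−0.35 to 0.56, 0.842) and 0.24 for *Klf15* (−0.12 to 0.60, 0.489).

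*Mstn*, which encodes myostatin, did not pass the test either. Its values were 37.8, 39.8 and 41.3 FPKM in CON16M, CON71M and CON72M, and 32.2, 49.45 and 36.6 in HS2M, HS3M and HS5M. The CON libraries lay within the range of the HSD libraries. The mean was 39.6 ± 1.75 FPKM in CON and 39.4 ± 8.97 in HSD (SD, n = 3 each), a log2 difference of −0.03 (interval −0.38 to 0.32, adjusted p = 0.948).

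*Mss51* (ENSMUSG00000021815, chromosome 14, from 20482867 to 20496901, minus strand), a zinc-finger protein of skeletal muscle found at mitochondria, had the tightest groups of the 10 genes relative to its change. It stood at 30.6 FPKM in CON16M, 28.25 in CON71M and 32.1 in CON72M. In HSD it stood at 69.1 FPKM in HS2M, 67.8 in HS3M and 64.6 in HS5M. The mean was 30.3 ± 1.93 FPKM in CON and 67.2 ± 2.30 in HSD (SD, n = 3 each), on 611 to 1680 fragments per library. The log2 difference was 1.14 (SE 0.11, interval 0.89 to 1.38, limma adjusted p = 0.00644), and *Mss51* ranked 3 by p among the 10834 genes tested, where *Fbxo32* ranked 22 and *Trim63* 132. It was called whichever muscle library was left out, with differences of 1.09 to 1.18, but not with all 18 libraries in 1 fit (adjusted p = 0.734).

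*Bnip3*, a receptor that marks mitochondria for autophagy, had 30.85, 42.3 and 38.1 FPKM in CON16M, CON71M and CON72M. It had 41.2, 58.0 and 43.4 FPKM in HS2M, HS3M and HS5M. Of the CON libraries, CON71M alone reached the range of the HSD libraries. *Bnip3* had a log2 difference of 0.35 (interval −0.02 to 0.72, adjusted p = 0.336).

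**Figure D1:**
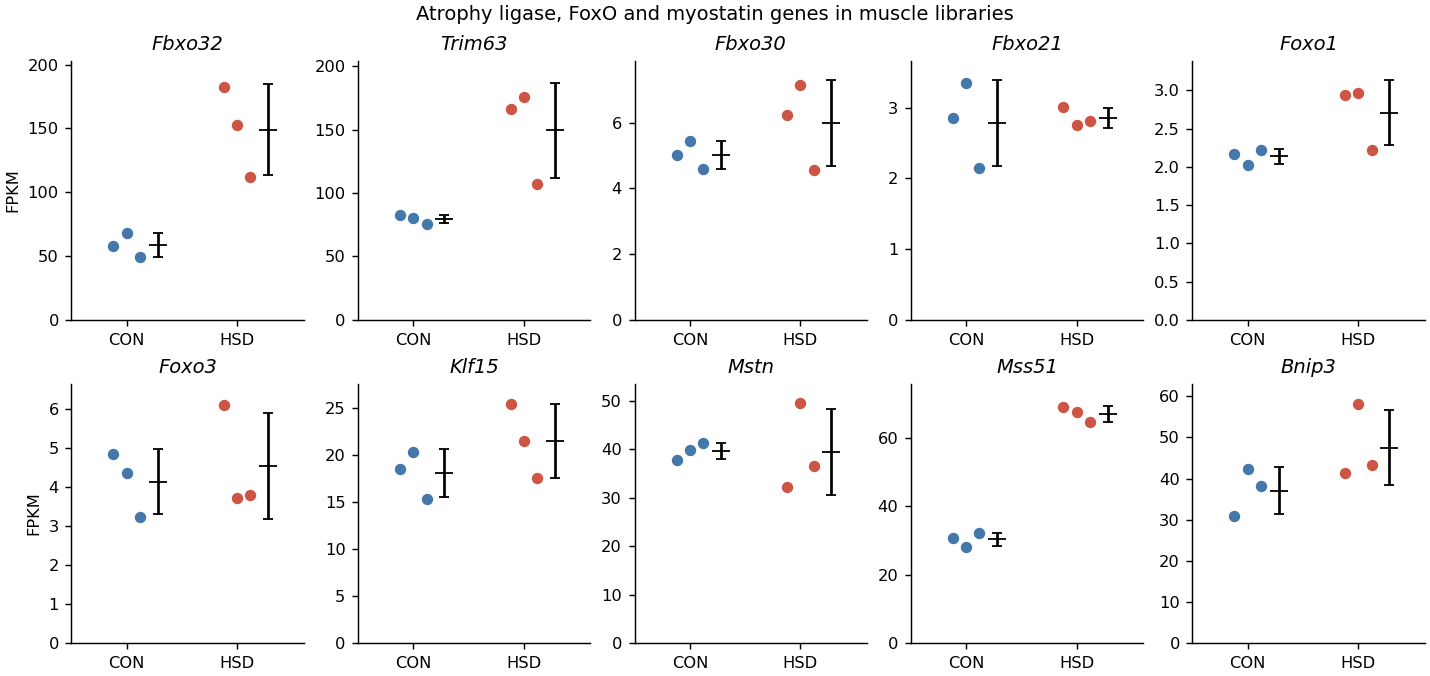
FPKM of the 10 genes in the 3 CON (blue) and 3 HSD (red) muscle libraries, in order of replicate number, with the mean and SD in black. The groups are apart for *Fbxo32* (49.1 to 67.85 against 112 to 183 FPKM), *Trim63* (75.75 to 82.4 against 107 to 176) and *Mss51* (28.25 to 32.1 against 64.6 to 69.1) and overlap for the other 7.

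The order of the levels in CON muscle was *Trim63* (79.35 FPKM), *Fbxo32* (58.3), *Mstn* (39.6), *Bnip3* (37.1), *Mss51* (30.3), *Klf15* (18.1), *Fbxo30* (5.01), *Foxo3* (4.13), *Fbxo21* (2.78) and *Foxo1* (2.14). The CON libraries of *Trim63* and *Fbxo32* did not overlap, and neither did those of *Fbxo32* and *Mstn*, *Mss51* and *Klf15*, or *Klf15* and *Fbxo30*. Those of *Mstn* and *Bnip3*, *Bnip3* and *Mss51*, *Fbxo30* and *Foxo3*, *Foxo3* and *Fbxo21*, and *Fbxo21* and *Foxo1* overlapped. In HSD muscle, the mean levels of *Fbxo32* (149 FPKM) and *Trim63* (149.5) were close, and *Mss51* (67.2 FPKM) stood above *Bnip3* (47.55) and *Mstn* (39.4).

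Some markers of fibre type and of other cells moved with the diet in the same muscle libraries. Of the 12 fibre markers, *Myh1* (log2 difference −1.01, adjusted p = 0.0452) and *Myh2* (−1.06, 0.0394), the myosin heavy chains of the fast fibres called 2X and 2A, fell. The differences of 8 of the 12 were positive, with a median of 0.10, and none of these passed the test. The 8 slow fibre markers summed to 230.6 to 501 FPKM in CON and 151.5 to 234.4 in HSD. None of them was called, 7 of 8 had a negative difference at an unadjusted p under 0.05, and their median was −0.90. The 8 macrophage markers summed to 29.3 to 40.7 FPKM in CON and 20.9 to 22.9 in HSD, with *C1qa* called lower (−1.06, adjusted p = 0.0213). Their median was −0.58, and 1 of the 8, *Cd163*, had a positive difference (0.32). The 7 fibroblast markers reached a sum of 168.6 FPKM in CON and lay between 113.9 and 122.5 in HSD, under each CON library, with *Col3a1* called lower (−1.46, adjusted p = 0.0160). *Col1a1* had the next largest fall (−1.17, adjusted p = 0.0549). Of the 7 fibroblast markers, 2 had a positive difference, *Dcn* (0.16) and *Pdgfra* (0.09), and the median was −0.155. Blood cell markers reached 965 FPKM in CON16M, against 124 to 224 in the other muscle libraries. The 8 adipocyte markers overlapped, at 115 to 217 FPKM in CON and 77.75 to 286 in HSD. No marker of these 6 lists was at 0 in any muscle library, and the part of these cells and fibres in the values of *Fbxo32*, *Mss51* and *Trim63* was not tested.

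**Figure D2:**
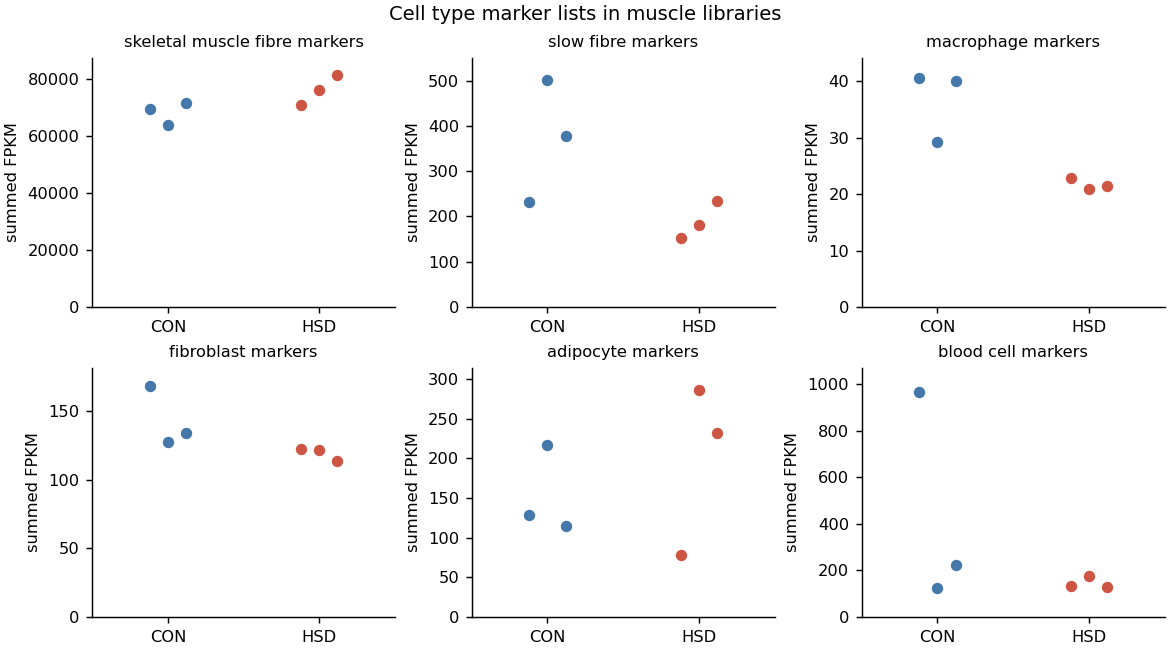
Summed FPKM of 6 marker lists in the 3 CON (blue) and 3 HSD (red) muscle libraries, in order of replicate number. The sums of macrophage and fibroblast markers, though not each marker, are lower in all 3 HSD libraries. Slow fibre sums overlap through CON16M (230.6 FPKM) and HS5M (234.4 FPKM), and the blood cell sum of CON16M is 965 FPKM.

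Other genes of the pathway were read from 6 lists. By adjusted p alone, 0.895% of the genes tested in muscle passed, and 16.3% had an unadjusted p under 0.05. Of 23 further ubiquitin ligases and partners tested, none was called by limma or by voom (limma's method for counts, on fragments recovered from FPKM), and 10 had a positive difference. Their median was −0.07. At an unadjusted p under 0.05, 5 were higher, led by *Zfand5* (0.46, adjusted p = 0.0946), a proteasome activator, and *Ubb* (0.41, 0.167), a ubiquitin gene, and 3 were lower, led by *Klhl40* (−0.54, 0.0641) and *Trim72* (−0.51, 0.0946). *Fbxo32* and *Trim63* thus lay above each of the 23 in log2 difference.

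Of the 15 genes of the FoxO family and its upstream kinases, *Foxo6* was called, and it fell. This FoxO factor had 2.05, 1.36 and 2.19 FPKM in CON16M, CON71M and CON72M, and 0.689, 0.559 and 0.617 in HS2M, HS3M and HS5M (log2 difference −1.06, SE 0.17, adjusted p = 0.0289). It was no longer called when CON16M (adjusted p = 0.1002), CON72M (0.119), HS3M (0.0900) or HS5M (0.0917) was left out. *Sgk1*, a kinase that phosphorylates FoxO proteins, stood at 61.4 to 68.7 FPKM in CON and 33.7 to 42.7 in HSD, a log2 difference of −0.77 that had an adjusted p of 0.0334 and was under the fold of 2. The highest difference was that of *Sirt1*, a deacetylase that acts on FoxO proteins (0.40, adjusted p = 0.210). In all, 1 gene was higher and 4 were lower at an unadjusted p under 0.05, 8 of 15 differences were positive, and the median was 0.11.

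FoxO target genes had the highest median of the 6 lists, 0.29, with 11 of 15 differences positive. None was called by limma. The translation inhibitor *Eif4ebp1*, named after its value was seen, passed by adjusted p alone (0.80, adjusted p = 0.0369). *Pdk4*, which blocks the entry of pyruvate into oxidation, had 72.0, 50.45 and 29.7 FPKM in CON16M, CON71M and CON72M, and 243, 220.5 and 81.9 in HS2M, HS3M and HS5M. Its difference of 1.77 (SE 0.41) was the largest of the 6 lists and had an adjusted p of 0.0873. It was called at 1.77 with the replicate block (adjusted p = 0.00220), at 1.78 with voom (0.0445) and at 2.27 without HS5M (0.0448). *Angptl4*, an inhibitor of lipoprotein lipase, followed at 0.81 (0.241). At an unadjusted p under 0.05, 6 targets were higher and 2 lower, *Sesn3* (−0.35, 0.252) and *Sod2* (−0.26, 0.303).

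In the remaining 3 lists, no gene was called in muscle by limma or by voom. Of 16 autophagy and mitophagy genes, 12 differences were positive (median 0.16), and 4 were higher at an unadjusted p under 0.05, led by the cargo receptor *Sqstm1* (0.41, adjusted p = 0.118) and *Gabarapl1* (0.36, 0.235). Of 13 genes of the glucocorticoid response and KLF15 targets, 8 were positive (median 0.03). *Fkbp5* (0.61, 0.0758), a chaperone induced by glucocorticoids, and *Zbtb16* (0.53, 0.300) led 3 higher genes. *Got1* (−0.49, 0.110) and *Mt1* (−0.40, 0.168) were the 2 lower ones. Of 14 genes of the myostatin and activin pathway, 6 were positive (median −0.05). *Smad7*, an inhibitor of the pathway, was the 1 higher gene (0.51, 0.214), and *Acvr2b* (−0.80, 0.160), a receptor of myostatin, and *Fst* (−0.55, 0.112), the activin antagonist follistatin, led 5 lower ones. *Acvr2b* was called without HS2M (−1.12, adjusted p = 0.0181) and with arrayWeights, limma's weighting of libraries (−1.01, 0.0386).

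**Figure D3:**
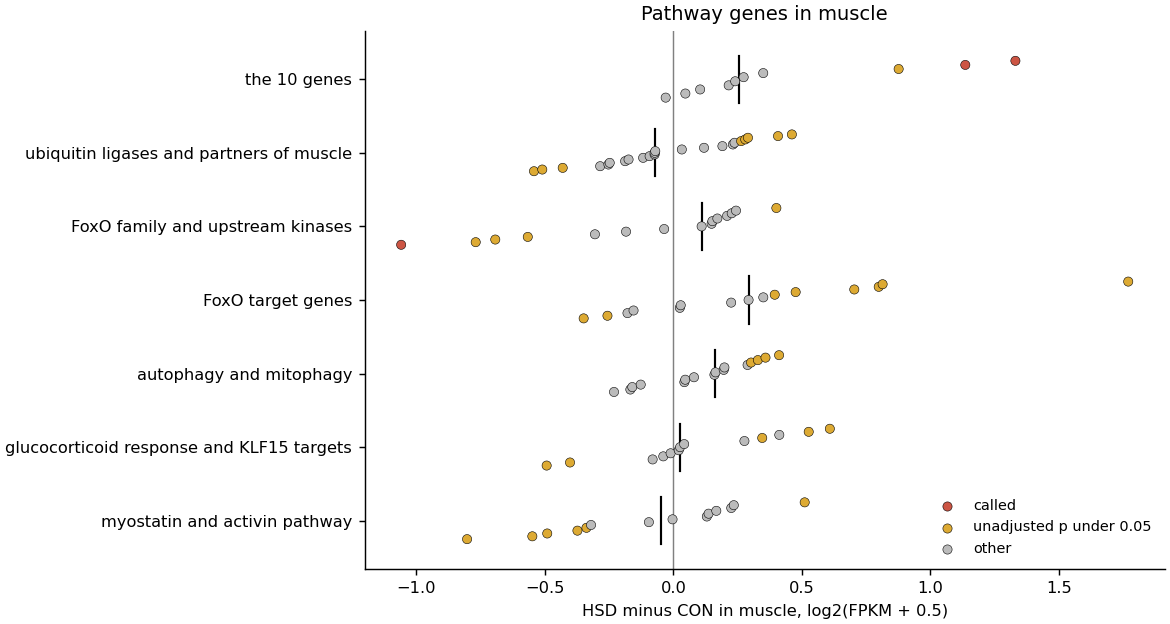
Log2 difference between HSD and CON muscle for each of the 10 genes and each tested gene of 6 pathway lists, with the median of each list as a bar, called genes in red and other genes with an unadjusted p under 0.05 in yellow. *Fbxo32* and *Mss51* at the right of the top line and *Foxo6* (−1.06) are called, and *Pdk4* at 1.77 is not.

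In liver, none of the 9 genes tested was called by limma or by voom, and 2 had an unadjusted p under 0.05. No gene of the 10317 tested was called (0% of the genes), and 592 had an unadjusted p under 0.05. *Klf15* had 39.0 FPKM in CON14L, 53.6 in CON16L and 45.0 in CON72L, and 97.8, 84.6 and 75.9 in HS2L, HS4L and HS5L. *Fbxo21* had 11.8, 17.0 and 13.4 FPKM in the CON libraries in the same order, and 26.5, 22.4 and 23.8 in the HSD libraries. For both genes every HSD library lay above every CON library. CON and HSD were free of overlap, in either direction, for 12.1% of all genes in liver. The log2 difference was 0.91 for *Klf15* (interval 0.13 to 1.68, adjusted p = 0.764) and 0.78 for *Fbxo21* (0.11 to 1.44, adjusted p = 0.764). The share of fragments on mitochondrially encoded genes was 60.85%, 25.7% and 37.9% in CON14L, CON16L and CON72L and 16.3%, 15.4% and 44.4% in HS2L, HS4L and HS5L. Without these genes in the library total, the differences were 0.84 for *Klf15* and 0.72 for *Fbxo21*, and with quantile normalization 0.48 and 0.47. Without CON16L they were 1.02 and 0.92 (adjusted p = 0.506 each).

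The liver values of *Fbxo32* and *Trim63* rested on CON16L. *Fbxo32* had 4.86 FPKM there (394 fragments), against 0.0313 to 0.489 in the other 5 liver libraries, and *Trim63* had 6.66 FPKM (220 fragments) and no fragment in the others. *Mstn* was at 2.03 FPKM in CON16L (64 fragments) and at 0 in the others, and was too low to be tested. The log2 differences of −0.67 for *Fbxo32* and −1.28 for *Trim63* in liver were computed with CON16L, and without it neither gene was tested, being under a mean of 0.5 FPKM. *Mss51* was not highest in CON16L. Its values were 4.38 FPKM in CON14L, 1.41 in CON16L and 2.04 in CON72L, and 0.683, 1.53 and 2.69 in HS2L, HS4L and HS5L, and CON16L was its lowest CON library. The difference was −0.54 (adjusted p = 0.764), and −0.84 without CON16L (0.5065). *Bnip3* spread over 6.95 to 21.1 FPKM in CON and 8.52 to 34.5 in HSD liver.

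In eWAT, none of the 8 genes tested was called by limma or by voom, and none had an unadjusted p under 0.05. The share of the 13740 tested genes that were called was 0%, and 2298 had an unadjusted p under 0.05. CON and HSD were free of overlap for 28.6% of the tested genes and for none of the 8. HS3W stood apart for several of the 10 genes. *Fbxo32* had 9.81 FPKM in HS3W, 3.89 in HS2W and 3.74 in HS5W, against 2.09 to 3.94 in CON. *Foxo1* had 6.13 FPKM in HS3W, against 14.6 and 14.2 in HS2W and HS5W and 13.1 to 15.7 in CON. *Klf15* (20.8 FPKM), *Fbxo21* (15.5) and *Bnip3* (41.0) were also lowest in HS3W of all eWAT libraries, and *Foxo3* (10.8) was highest there. The log2 difference of *Fbxo32* was 0.79 (interval −0.20 to 1.77, adjusted p = 0.367), and 0.37 without HS3W (0.339). That of *Foxo1* was −0.37 (−1.19 to 0.45, 0.556) and 0.02 without HS3W (0.914), and *Bnip3* and *Foxo3* also changed sign, from −0.13 to 0.25 and from 0.15 to −0.01. *Fbxo30* had 3.92 to 4.68 FPKM in CON and 4.65 to 5.44 in HSD, and *Mss51* 0.171 to 1.22 and 0.843 to 1.69. The 12 fibre markers summed to 9.87 to 20.04 FPKM in CON eWAT and 32.5 to 53.1 in HSD eWAT. The 8 hepatocyte markers summed to 121.8 to 342.1 FPKM in CON eWAT and 6.31 to 16.6 in HSD eWAT. The part of fibre, hepatocyte and blood cell transcripts in these values was not tested.

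**Figure D4:**
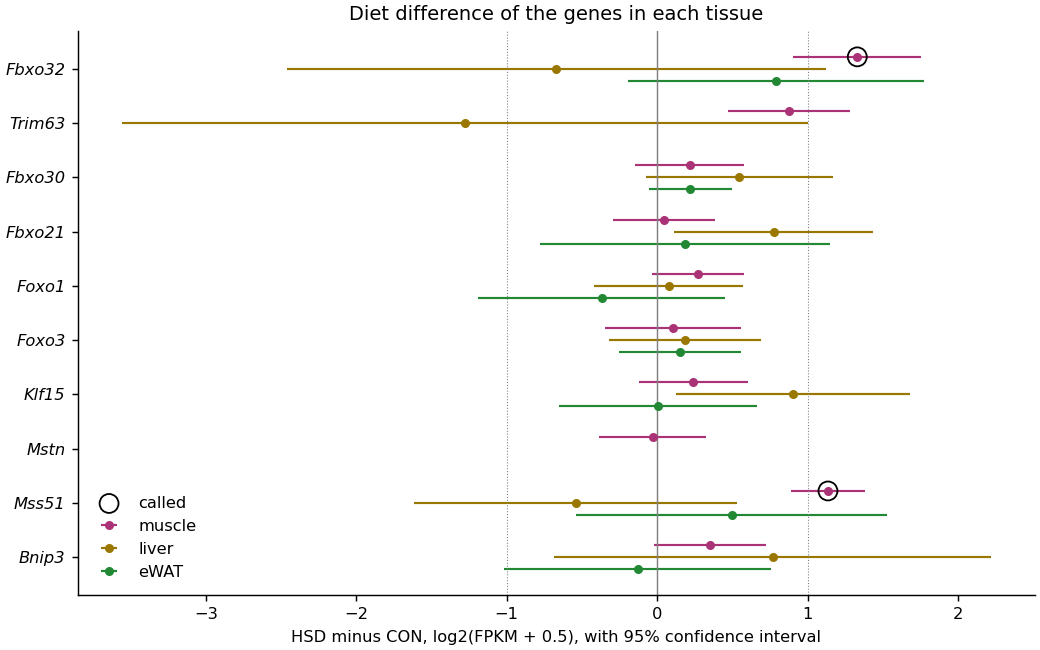
Difference between HSD and CON on the log2(FPKM + 0.5) scale with its 95% confidence interval, for each gene tested in muscle, liver and eWAT, with dotted lines at a fold of 2 in either direction. The circled muscle values of *Fbxo32* (1.33) and *Mss51* (1.14) are the called ones, and the wide liver intervals of *Fbxo32* and *Trim63* include CON16L.

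Whether the diet difference itself differed between tissues was tested as an interaction over all 18 libraries. Against liver, none of the 10 genes was called by limma or by voom, where 0.0612% of 13067 genes were called. *Mss51* had an unadjusted p under 0.05 by limma, as had 1039 of all genes. *Fbxo32* had one, but outside CON16L it stood at 0.0313 to 0.489 FPKM in liver, under the filter of 0.5. A change of *Fbxo32* in liver could hardly be seen there, so its contrast with liver gives no comparison of tissues. *Trim63* had one too, but *Trim63* and *Mstn* had fragments in no liver library except CON16L and give no comparison of tissues. The difference of *Mss51* between muscle and liver was 1.68 (interval 0.50 to 2.86, adjusted p = 0.416), that of *Fbxo32* 2.001 (0.23 to 3.78, 0.573) and that of *Trim63* 2.16 (0.11 to 4.20, 0.598). Without CON16L, it was 1.97 for *Mss51* (adjusted p = 0.160). For *Fbxo32* it was then 1.04 (0.340), with its liver values near the floor. *Trim63* then had no fragment in any liver library, so that its value of 0.88 is its muscle difference alone and compares no tissues. *Mstn*, at 0 in the same 5 liver libraries, likewise passed the filter through muscle. In the 15 libraries that the study used, which leave out CON16L, HS5L and HS5W, *Mss51* was called at 2.32 (adjusted p = 0.0177). Against eWAT, *Mstn* (no fragment) and *Trim63* (at most 10 fragments in a library) passed the filter through muscle alone and give no comparison of tissues. None of the other 8 genes was called by limma or by voom or had an unadjusted p under 0.05 by limma, where 0% of the 13067 genes were called and 1045 passed the unadjusted threshold. There the difference was 0.64 for *Mss51* (interval −0.53 to 1.82, adjusted p = 0.791) and 0.54 for *Fbxo32* (−1.23 to 2.32, 0.910), and 0.87 and 0.96 without HS3W (0.915 and 0.993). The rise of *Mss51* in muscle is thus not shown to differ from the change in liver or eWAT over all libraries. That of *Fbxo32* is not shown to differ from the change in eWAT, and liver does not decide it.

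Between the tissues of CON mice, 8 of the 10 genes differed between muscle and liver, against 50.1% of 12637 genes, and 7 between muscle and eWAT, against 54.9%. Both counts include *Trim63* and *Mstn*, which passed the filter through muscle and the muscle transcripts of CON16L. Neither had a fragment in CON14L or CON72L, and a CON eWAT library held at most 6. The calls of these genes therefore cannot be weighed against the shares of all genes. The median log2 difference of all genes was 0.52 against liver and −0.93 against eWAT, and 0.07 and −0.12 with median-ratio scaling. *Fbxo32*, *Trim63*, *Mstn* and *Mss51* were higher in muscle than in either tissue with FPKM as given, with median-ratio scaling and with quantile normalization. *Fbxo32* was higher by 5.37 than in liver (6.33 without CON16L) and by 4.13 than in eWAT, where it stood at 2.92 ± 0.941 FPKM (SD, n = 3). *Mss51* was higher by 3.42 than in liver (2.61 ± 1.56 FPKM) and by 4.77 than in eWAT (0.716 ± 0.525 FPKM). *Trim63* had at most 10 fragments in an eWAT library, or 0.286 FPKM. *Mstn* had no fragment in any of the 6 eWAT libraries, where 3 fragments per library would be 0.0667 to 0.0902 FPKM, so it was at least 541.6-fold higher in CON muscle and at least 437-fold higher in HSD muscle. In HSD liver, where neither gene had a fragment, *Trim63* was at least 1211-fold and *Mstn* at least 304-fold lower than in HSD muscle.

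*Fbxo21* and *Klf15* were lower in muscle than in liver, by 2.15 and 1.32 on the log2 scale, under each of the 3 scalings. In CON liver they stood at 14.1 ± 2.67 and 45.9 ± 7.34 FPKM (SD, n = 3 each). *Fbxo21* and *Foxo1* were lower in muscle than in eWAT, by 2.95 and 2.48, also under each of the 3, with eWAT levels of 24.98 ± 5.57 and 14.2 ± 1.36 FPKM. *Fbxo30* and *Bnip3* were higher in muscle than in liver by 1.32 and 1.55, but by 0.79 and 0.90 with median-ratio scaling, under the fold of 2. *Fbxo30* did not pass against eWAT (0.23, adjusted p = 0.281) but was called higher in muscle with median-ratio scaling (1.09). *Bnip3* was lower in muscle than in eWAT (78.0 ± 19.7 FPKM), at −1.05, and at −0.06 with median-ratio scaling, where it was not called. It was also not called without CON16W (adjusted p = 0.101), CON16M (0.0891) or CON72M (0.0601). *Foxo3* and *Klf15* were under the fold of 2 against eWAT (−0.82 and −0.79) and turned to 0.09 and 0.19 with median-ratio scaling. *Foxo1* and *Foxo3* did not pass the test against liver (0.28 and 0.21, adjusted p = 0.103 and 0.309) and turned to −0.27 and −0.39 with that scaling.

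**Figure D5:**
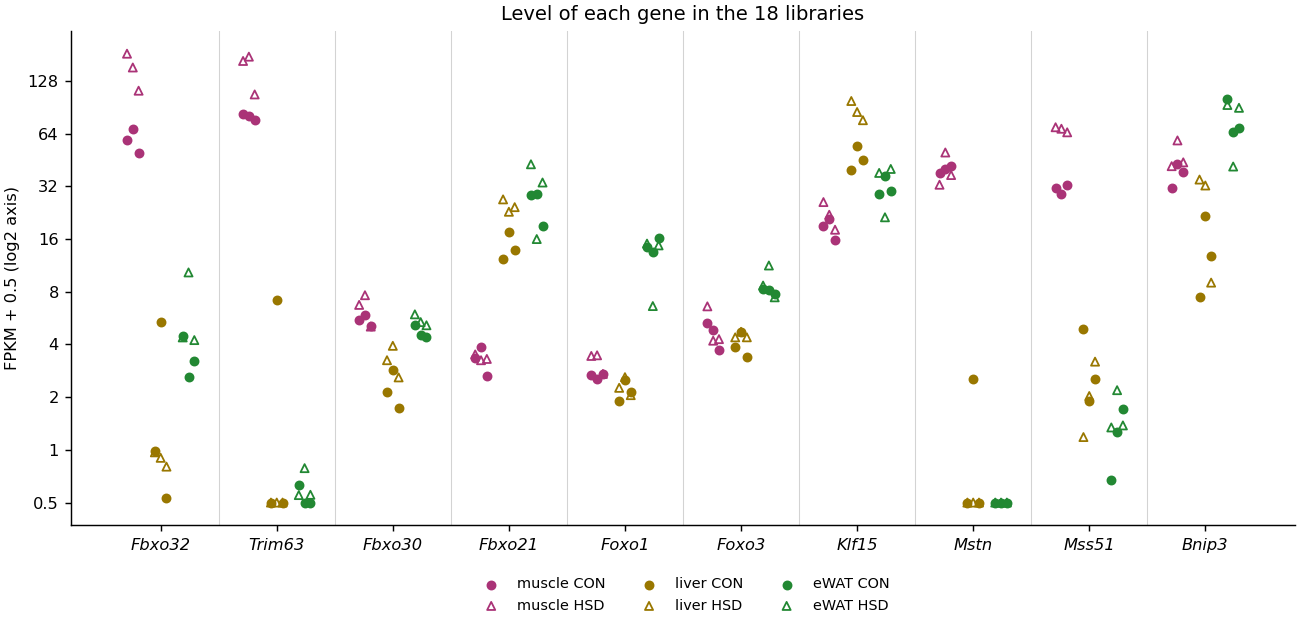
FPKM + 0.5 of the 10 genes in all 18 libraries on a log2 axis, by tissue (colour) and diet (filled circles CON, open triangles HSD). *Trim63*, *Mstn* and *Fbxo32* are under 1 on this axis in liver except in CON16L, with 6.66, 2.03 and 4.86 FPKM, and *Klf15* and *Fbxo21* are higher in liver than in muscle.

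The patterns of other genes over the 18 libraries were compared by Pearson's r of log2(FPKM + 0.5) across 13067 genes, as a description, since libraries share tissues and mice and r mostly follows the tissue. Nearest to *Trim63* were *Lrrc2* (0.999), *Trdn* (0.998) and *Asb5* (0.997), and nearest to *Mstn* were *Tmem233* (0.999), *Ttn* (0.998) and *Myod1* (0.998). *Fbxo32* was nearest to *Cap2* (0.985), *Tacc2* (0.984) and *Rbm24* (0.983), and *Mss51* to *Odf3l2* (0.966), *Homer1* (0.961) and *Cdh15* (0.960). *Foxo1*, highest in eWAT, was nearest to *Gpat3* (0.994), *Alkal2* (0.990) and *Cped1* (0.990). *Fbxo21* was nearest to *Tspan12* (0.984), *Csad* (0.976) and *Angptl4* (0.9754), and *Klf15* to *Abca6* (0.962), *Ceacam1* (0.947) and *Rnase4* (0.944). For *Fbxo30* the nearest were *Ube3a* (0.966), *Uchl5* (0.959) and *Klhl7* (0.959), for *Foxo3* *Vps13b* (0.964), *Arfgef2* (0.959) and *C2cd3* (0.958), and for *Bnip3* *Acadsb* (0.970), *Rnf130* (0.966) and *Anxa7* (0.963).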

How the data were processed

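Total RNA from liver, eWAT and muscle was depleted of rRNA and sequenced as stranded paired-end libraries. The authors report cutadapt for trimming, hisat2 for alignment (mm10) and cuffdiff with an Ensembl annotation for FPKM. The release of the annotation is not given in the sources used here. The submitters' processing notes also name mm9 and HTSeq 0.9.1, and which tool made the FPKM used here was not tested. With GENCODE M21 exon lengths (GRCm38), FPKM of 18369 of 18822 genes above 0 gave whole fragments in all 18 libraries (within 0.1), from which depth was taken (7628070 to 16637486 fragments per library).

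Groups were taken from the labels, and libraries of a group are different mice. Each tissue was fitted alone by limma 3.58.1 (R 4.3.3, eBayes with trend) on log2(FPKM + 0.5), keeping a mean of 0.5 FPKM or more. The authors themselves used DESeq2 on counts, which were not used here. Interactions and CON tissue levels each had 1 model. CON16L, HS5L and HS5W, which the study left out, were kept. The fit was also run on simulated data with 200 changed genes and independent noise, without foreign tissue or shifts shared by a library. That run gives no power or error rate for the libraries here.

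The genes described, the pathway and marker lists and the tests were chosen with earlier results of these data known. Named beside the 10 genes were the called genes of each pathway list, up to 2 of the largest rises and falls of each at an unadjusted p under 0.05 in muscle, and the 3 genes nearest to each gene in pattern. Called marker genes and *Eif4ebp1* were added after their values were seen. Of 24 ubiquitin ligases and partners, 23 were found by symbol.

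In muscle, deviations from the group means correlated between same-numbered CON and HSD libraries (0.383, 0.177 and 0.184). Between libraries of unlike number the correlation ran from −0.3475 to 0.180, the highest being CON replicate 3 with HSD replicate 2. The libraries are of different mice, and the numbers are not shown to be pairs. The blocked value is given as an alternative where it changes a call.

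Alternatives were pseudocounts of 0.1 and 1, no filter or a mean FPKM of 1, median-ratio scaling, quantile normalization, arrayWeights, eBayes with no trend, calls by adjusted p only, FPKM rescaled without mitochondrially encoded genes, a replicate or mouse block, all 18 libraries in 1 fit, the study's 15 libraries, and each library left out. limma voom on recovered fragments was added after the data were seen. Figures were drawn with Python 3.11.15, numpy 2.4.6, pandas 2.3.3 and matplotlib 3.10.9.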

Additional observations from a re-analysis of the deposited data

How the results depend on the processing

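In muscle, 2 of the 10 genes were called. With no filter on low FPKM the number was 1 (*Mss51*), with all 18 libraries in 1 fit it was 0, and it ran from 1 to 3 when each library was left out. In liver it rose from 0 to 3 with arrayWeights, *Klf15* (1.10), *Mss51* (−1.09) and *Bnip3* (1.43), and the difference between muscle and liver rose from 0 to 1 in the study's libraries (*Mss51*). The cause was not tested. No called gene among the 10 changed direction under these alternatives. With the replicate block, 2 genes were called in muscle, 0 in liver and 0 in eWAT, and the mouse as a random block changed no call of the 10. In liver (−0.472, 0.396 and −0.213) and eWAT (−0.197, 0.061 and 0.414), same-numbered libraries did not deviate together in every pair and share a number only.

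Over all genes, calls in muscle numbered 35, and 5 in 1 fit of all libraries, 7 with no filter, 54 with the replicate block, 66 with voom, 97 by adjusted p alone and 10 to 61 when each library was left out. Liver had 0, and 35 in the study's libraries, 41 in 1 fit and 926 with arrayWeights. In eWAT there were 0, and 160 without HS3W, 161 in 1 fit and 220 with arrayWeights. The difference between muscle and liver had 8, and 2 (voom) to 1286 (the study's libraries) under other settings and 1 to 59 when each library was left out. That between muscle and eWAT had 0, and up to 362 (arrayWeights) and 0 to 145. *Foxo6* was not called with no filter (adjusted p = 0.103), a pseudocount of 1 (log2 difference −0.81), quantile normalization (adjusted p = 0.0688) or 1 fit of all libraries (0.283).

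A difference under the fold of 2 could not be called at any adjusted p. With 3 libraries per group, the interval of *Klf15* in muscle ran from −0.12 to 0.60. In muscle, markers of hepatocytes summed to 1.36 to 41.8 FPKM, of endothelium to 55.4 to 81.5, of satellite cells and myoblasts to 20.02 to 26.8, of Schwann cells to 31.8 to 53.6, of smooth muscle to 48.7 to 73.0 and of epididymal epithelium to 0.0206 to 1.73, with CON and HSD ranges that overlapped.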
